A study of Drosophila melanogaster with 12 samples.

Results

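The transcripts described here are those whose log2 ratio of construct over GFP lay above 0 on each of the 12 arrays of the study. A reporter, the printed DNA spot that measures 1 transcript, was counted if its deposited log2 ratio was above 0 on all 12 arrays and averaged 0.25 or more, a ratio of 1.19-fold. Genes of the core and linker histones, Fadd and Tektin-C were left out by name. Of 14485 reporters, 71 lay above 0 on all 12 arrays (0.49%), 40 of them averaged 0.25 or more (0.276%), and 39 remained once Fadd was set aside. These 39 reporters stand for 26 named genes, CG14897 being measured by 2 of them, and for 12 transcripts with no gene symbol. They were chosen by their measured ratios of construct over GFP, which are therefore described below without a test.

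Embryos of Drosophila melanogaster were raised at 25 °C to an age of 3.5 to 4.5 h, which is stage 8 to 9, and RNA was taken from whole embryos. Females carrying simGal4, a driver active in the ventral midline, were crossed to males carrying a UAS construct. The constructs were EnRep, DichaeteWT (a wild type Dichaete construct) and HMG-minus, and the embryos they were compared with expressed GFP from the same driver. Each construct had 4 biological replicates, each hybridised with GFP RNA on 1 two-colour array, with the construct RNA in Cy3 on replicates 1 and 2 and in Cy5 on replicates 3 and 4. The submitters describe their constructs as dominant negative, although the labels of DichaeteWT call it wild type. The labels do not give the insertion site or strain background of the UAS lines, nor say whether arrays shared a GFP extract. Every ratio has GFP embryos below the line, so a higher level in all 3 kinds of construct embryo cannot be told apart from a lower level in GFP embryos. In whole-embryo RNA, more cells of a type and more RNA per cell cannot be told apart either.

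Dichaete is a transcription factor of the SoxB family that binds DNA through its HMG domain, and it acts with the bHLH-PAS factor Single-minded in the cells of the ventral midline. Midline cells are a small part of the embryo at this stage and later give rise to midline glia and neurons. The 26 genes are not a known pathway. They include enzymes of amino acid breakdown and glutathione conjugation, proteins of chromosome structure and repair, signalling proteins, secreted stress and immune proteins, and several genes of unknown function.

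The median spot had a foreground of 247 to 433 intensity units on the Cy3 side and 280 to 421 on the Cy5 side, and the spot finder accepted 86.8% to 98.3% of spots in Cy3 and 71.9% to 92.9% in Cy5. The number of arrays limits the precision. Late muscle and cuticle genes stood apart on EnRep replicate 4, where the median log2 ratio of 12 reporters was 1.09, and were also high on DichaeteWT replicate 2, at 0.77. Germ cell genes and maternal RNAs stood apart on HMG-minus replicates 3 and 4, with medians of 0.85 and 0.60 over 6 reporters and of 0.94 and 0.77 over 8. The medians of the 39 reporters were 0.36 on EnRep replicate 4, 0.28 on DichaeteWT replicate 2 and 0.48 and 0.41 on HMG-minus replicates 3 and 4, against 0.25 to 0.52 over all 12 arrays. Without EnRep replicate 4 the mean of each of the 39 stayed above 0.25, a level that the choice had set for the mean of all 12 arrays.

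Most of the 39 reporters lay only a little above GFP. Their means over 12 arrays ran from 0.25 to 1.06 on the log2 scale with a median of 0.33, and 8 of 39 averaged 0.5 or more. The SD over the 12 arrays ran from 0.10 to 0.50 with a median of 0.19, against 0.24 for all reporters. Choosing reporters above 0 on all 12 arrays by itself favours a small spread. The lower median therefore does not show that the 39 were more reproducible than other reporters. Of the 468 single values, 22 were under 0.05, spread over 17 reporters, and 12 of 39 reporters stayed above 0.1 on every array. Just inside the threshold were Aptx (0.252), Jhbp14 (0.252) and the unnamed reporter 1000042783 (0.259). Just outside it, also above 0 on all 12 arrays, were CG9254 (0.248), CG4631 (0.247) and CG33467 (0.233). The opposite pattern was more frequent: 157 reporters lay below 0 on all 12 arrays (1.08%) and 105 of them averaged -0.25 or less (0.725%), the lowest at -1.22.

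**Figure D1:**
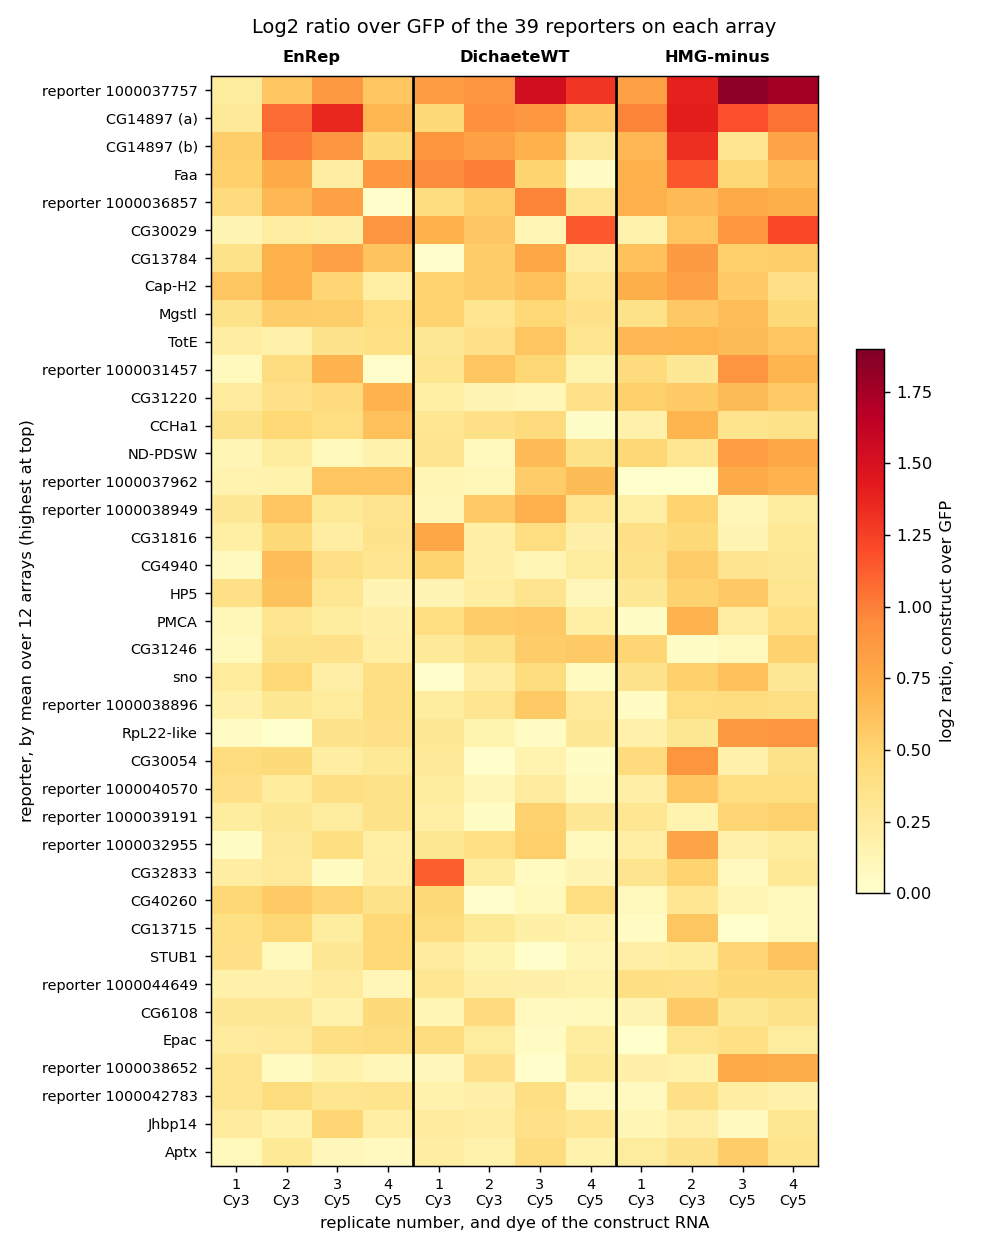
Log2 ratio of construct over GFP (colour, from 0 to the highest value) for the 39 reporters, ordered from the highest mean at the top, on 4 arrays each of EnRep, DichaeteWT and HMG-minus, with the replicate number and the dye of the construct RNA under each column. The names CG14897 (a) and (b) are the 2 reporters of that gene. A reader should see that most cells are pale, that the unnamed reporter 1000037757 reaches 1.84, and that single dark cells such as CG32833 on DichaeteWT replicate 1 (1.13) stand out from their row.

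CG14897, now part of the gene CG42232 in RefSeq, had the highest means among named genes. Below, values are log2 ratios over GFP in the order of replicates 1 to 4. Reporter (a) of CG14897 had 0.28, 1.07, 1.36 and 0.69 in EnRep embryos, 0.45, 0.93, 0.88 and 0.57 in DichaeteWT embryos, and 0.98, 1.41, 1.18 and 1.05 in HMG-minus embryos, a mean of 0.91 ± 0.35 (SD, n = 12), or 1.87-fold. Reporter (b) had 0.54, 1.01, 0.89 and 0.45 in EnRep, 0.89, 0.82, 0.71 and 0.28 in DichaeteWT, and 0.67, 1.32, 0.33 and 0.79 in HMG-minus embryos, a mean of 0.73 ± 0.30 (SD, n = 12). The lowest value was 0.28 on each reporter, and the 2 differed most on HMG-minus replicate 3, at 1.18 and 0.33. A further reporter of CG42232, labelled CG14896, averaged 0.11 and lay above 0 on 9 of 12 arrays.

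Faa encodes fumarylacetoacetase, the last enzyme of tyrosine breakdown. It had 0.52, 0.75, 0.23 and 0.88 in EnRep, 0.94, 1.00, 0.50 and 0.06 in DichaeteWT, and 0.72, 1.15, 0.48 and 0.64 in HMG-minus embryos, a mean of 0.66 ± 0.32 (SD, n = 12). The 3 constructs overlapped, and DichaeteWT replicate 4 was near GFP. Of the 7 genes listed for this pathway, 5 were measured, Faa among them. Their median over the 12 arrays was 0.15, against 0.00 for all reporters, and includes Faa, which was chosen for its high mean. Hpd, which acts earlier in the pathway, averaged 0.25 over a range of -0.59 to 1.51. The homogentisate dioxygenase hgo averaged 0.15, GstZ2 0.13 and GstZ1 -0.20. Both GstZ genes encode glutathione transferases of the zeta class, which holds the enzyme of the step before Faa. Faa, by the choice, and none of the other 4 lay above 0 on all 12 arrays. Since 0.49% of all reporters did, a count of 0 in a list of this size is at the background, here and in the lists below. None of the 5 was called in a difference between constructs (limma, adjusted p below 0.05).

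Mgstl, a microsomal glutathione transferase, had the smallest spread of the 39. It had 0.37, 0.56, 0.54 and 0.42 in EnRep, 0.51, 0.32, 0.47 and 0.37 in DichaeteWT, and 0.37, 0.58, 0.64 and 0.46 in HMG-minus embryos, a mean of 0.47 ± 0.10 (SD, n = 12), or 1.38-fold. All 12 values lay between 0.32 and 0.64. The soluble glutathione transferases, 28 genes on 29 reporters, had a median of 0.01, with 0 above GFP on all 12 arrays and 2 below. ND-PDSW, a subunit of mitochondrial complex I, had 0.12, 0.24, 0.09 and 0.18 in EnRep, 0.34, 0.08, 0.66 and 0.36 in DichaeteWT, and 0.48, 0.32, 0.84 and 0.78 in HMG-minus embryos. All EnRep values of ND-PDSW were below all HMG-minus values. Of 31 complex I reporters, a list added after values were seen, ND-PDSW alone lay above GFP on all 12 arrays, and their median was -0.03.

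A further 3 genes act on chromosomes, chromatin or DNA. Cap-H2, a subunit of condensin II, had 0.59, 0.71, 0.49 and 0.21 in EnRep, 0.51, 0.55, 0.62 and 0.33 in DichaeteWT, and 0.73, 0.82, 0.56 and 0.39 in HMG-minus embryos, a mean of 0.54 ± 0.17 (SD, n = 12). Its lowest value in each construct was on replicate 4, and every value was at least 0.21. The condensin list, also added after values were seen, holds 7 genes on 10 reporters and had a median of -0.05, with this Cap-H2 reporter alone above GFP throughout. HP5, a heterochromatin protein, had 0.38, 0.61, 0.31 and 0.13 in EnRep, 0.14, 0.23, 0.34 and 0.10 in DichaeteWT, and 0.30, 0.52, 0.57 and 0.32 in HMG-minus embryos. Aptx, the DNA repair enzyme aprataxin, had 0.10, 0.28, 0.10 and 0.07 in EnRep, 0.24, 0.16, 0.42 and 0.17 in DichaeteWT, and 0.25, 0.35, 0.55 and 0.34 in HMG-minus embryos. It was the member with the lowest mean.

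Signalling proteins are given next, together with genes of other roles. CCHa1, the precursor of the neuropeptide CCHamide-1, had 0.36, 0.47, 0.41 and 0.63 in EnRep, 0.31, 0.38, 0.44 and 0.03 in DichaeteWT, and 0.18, 0.70, 0.34 and 0.36 in HMG-minus embryos, a mean of 0.39 ± 0.18 (SD, n = 12). The 3 constructs overlapped. PMCA, the plasma membrane calcium pump, had 0.11, 0.32, 0.24 and 0.20 in EnRep, 0.41, 0.55, 0.57 and 0.21 in DichaeteWT, and 0.03, 0.70, 0.23 and 0.39 in HMG-minus embryos. The nuclear protein Strawberry notch (sno), which acts in the Notch pathway, had 0.27, 0.47, 0.20 and 0.40 in EnRep, 0.02, 0.22, 0.43 and 0.06 in DichaeteWT, and 0.35, 0.52, 0.62 and 0.30 in HMG-minus embryos. Both genes had an array within 0.05 of GFP.

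Epac, a cAMP-activated exchange factor for the small GTPase Rap, had 0.26, 0.27, 0.40 and 0.43 in EnRep, 0.42, 0.25, 0.05 and 0.24 in DichaeteWT, and 0.01, 0.33, 0.39 and 0.25 in HMG-minus embryos. CG30054, a predicted alpha subunit of heterotrimeric G proteins, had 0.43, 0.45, 0.22 and 0.29 in EnRep, 0.28, 0.01, 0.16 and 0.04 in DichaeteWT, and 0.44, 0.89, 0.18 and 0.37 in HMG-minus embryos. Its highest value, on HMG-minus replicate 2, is well apart from the others. STUB1, a ubiquitin ligase that works with heat shock chaperones, had 0.38, 0.09, 0.30 and 0.47 in EnRep, 0.26, 0.15, 0.02 and 0.12 in DichaeteWT, and 0.21, 0.24, 0.49 and 0.61 in HMG-minus embryos. Among the other genes, the array labels CG31246, CG13715 and CG4940 correspond in RefSeq to tinc, axo and Sol1, with means of 0.33, 0.28 and 0.34. Reporters that carry the current symbols were lower, at 0.09 and 0.03 for tinc, 0.20 for axo and 0.03 for Sol1. The gene axo encodes the neuronal surface protein axotactin, and Sol1 is named for a worm protein of glutamate receptors.

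TotE belongs to the Turandot family of small secreted proteins that are induced by stress. It had 0.23, 0.18, 0.35 and 0.39 in EnRep, 0.29, 0.37, 0.60 and 0.32 in DichaeteWT, and 0.67, 0.69, 0.65 and 0.59 in HMG-minus embryos, a mean of 0.44 ± 0.18 (SD, n = 12). Its 4 HMG-minus values lay above all 4 EnRep values. The TotE spot was dim, accepted in both channels on 5 of 12 arrays, so these ratios are less firmly measured than those of Mgstl or Cap-H2. The other Turandot genes measured, a list added after values were seen, averaged 0.15 (TotB), 0.14 (TotF), 0.03 (TotZ) and -0.06 (TotC).

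CG31220, a serine protease by its RefSeq synonyms, had 0.26, 0.38, 0.44 and 0.70 in EnRep, 0.21, 0.14, 0.12 and 0.38 in DichaeteWT, and 0.53, 0.56, 0.65 and 0.57 in HMG-minus embryos. The HMG-minus values lay above all DichaeteWT values. The spot was accepted in both channels on 8 of 12 arrays, among them 2 of 4 DichaeteWT and 2 of 4 HMG-minus arrays. Jhbp14, of the juvenile hormone binding family, averaged 0.25 and was highest on EnRep replicate 3, at 0.49. The 13 reporters of that family, a list added after values were seen, had a median of 0.06. Of 6 antimicrobial peptide genes measured, with means of -0.11 to 0.06, and 3 small heat shock genes, with means of 0.11 to 0.35, 0 lay above GFP on all 12 arrays, which is at the share of all reporters (0.49%).

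Among genes of unknown function, CG13784 had 0.36, 0.71, 0.82 and 0.60 in EnRep, 0.02, 0.55, 0.78 and 0.23 in DichaeteWT, and 0.62, 0.86, 0.53 and 0.53 in HMG-minus embryos, a mean of 0.55 ± 0.25 (SD, n = 12). CG30029, which RefSeq lists as the pseudogene CR30029, had 0.14, 0.23, 0.20 and 0.90 in EnRep, 0.71, 0.58, 0.13 and 1.15 in DichaeteWT, and 0.17, 0.60, 0.88 and 1.22 in HMG-minus embryos, a mean of 0.58 ± 0.40 (SD, n = 12). It was highest on replicate 4 of every construct. The CG30029 spot was accepted in both channels on 2 of 4 EnRep, 4 of 4 DichaeteWT and 2 of 4 HMG-minus arrays. The remaining 4, CG31816, CG32833, CG40260 (now CG17684) and CG6108 (now CG44085), averaged 0.34, 0.30, 0.29 and 0.27.

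The 12 reporters with no gene symbol had the highest mean of all among them. Reporter 1000037757 had 0.25, 0.60, 0.87 and 0.59 in EnRep, 0.84, 0.90, 1.53 and 1.30 in DichaeteWT, and 0.82, 1.39, 1.84 and 1.76 in HMG-minus embryos, a mean of 1.06 ± 0.50 (SD, n = 12), or 2.08-fold. It was accepted in both channels on 4 of 4 EnRep, 1 of 4 DichaeteWT and 4 of 4 HMG-minus arrays, so its DichaeteWT values are the least firm. Reporter 1000036857 had 0.44, 0.67, 0.82 and 0.01 in EnRep, 0.42, 0.54, 0.98 and 0.33 in DichaeteWT, and 0.72, 0.65, 0.76 and 0.73 in HMG-minus embryos, a mean of 0.59 ± 0.26 (SD, n = 12), and was accepted on all 12 arrays. The other 10 averaged between 0.26 and 0.42.

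**Figure D2:**
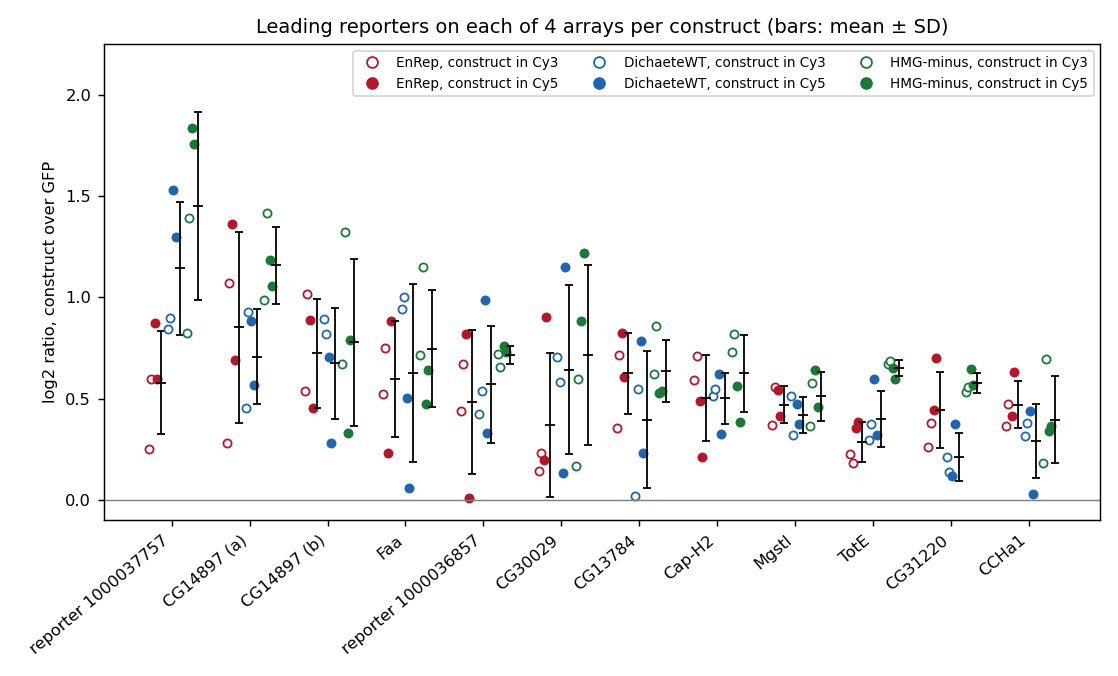
Log2 ratio of construct over GFP for the 10 leading named reporters and the 2 leading unnamed ones, by construct, with 1 point per array (open where the construct was in Cy3, filled where it was in Cy5) and the mean ± SD of 4 arrays. Every point is above 0 by the choice of reporters. The 12 Mgstl points lie between 0.32 and 0.64, whereas those of reporter 1000037757 run from 0.25 to 1.84.

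Of the 26 genes, 13 had at least 1 further reporter that did not pass the rule, 20 in all. Of these, 7 carry the same symbol on the array as their partner, and the other 13 are tied to it by the current RefSeq gene. By the choice, none of the 20 can meet both conditions of the rule, so only their levels are described: 0 lay above 0 on all 12 arrays (0.49% of all reporters did) and 0 averaged 0.25 or more. Their means ran from -0.13 to 0.22 with a median of 0.03, 12 being above 0 and 8 below. The second Cap-H2 reporter averaged -0.10 ± 0.18 (SD, n = 12) and lay above 0 on 4 of 12 arrays, although it was accepted in both channels on all 12. Its 12 values, between -0.45 and 0.20, lay below all 12 values of the first reporter, which ran from 0.21 to 0.82. The second reporter of CG13784 averaged -0.04 and that of Aptx -0.03, each also accepted on all 12 arrays. The highest means of the 20 were those of the second reporters of HP5, at 0.22 ± 0.46, and Mgstl, at 0.21 ± 0.20 (SD, n = 12). The second Mgstl reporter lay above 0 on 10 of 12 arrays. The second HP5 reporter averaged -0.21 with the construct in Cy5 and 0.64 with it in Cy3. Both CG14897 reporters passed, and no other gene had 2 that did. The array annotation used here does not say which part of a transcript a reporter covers.

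**Figure D3:**
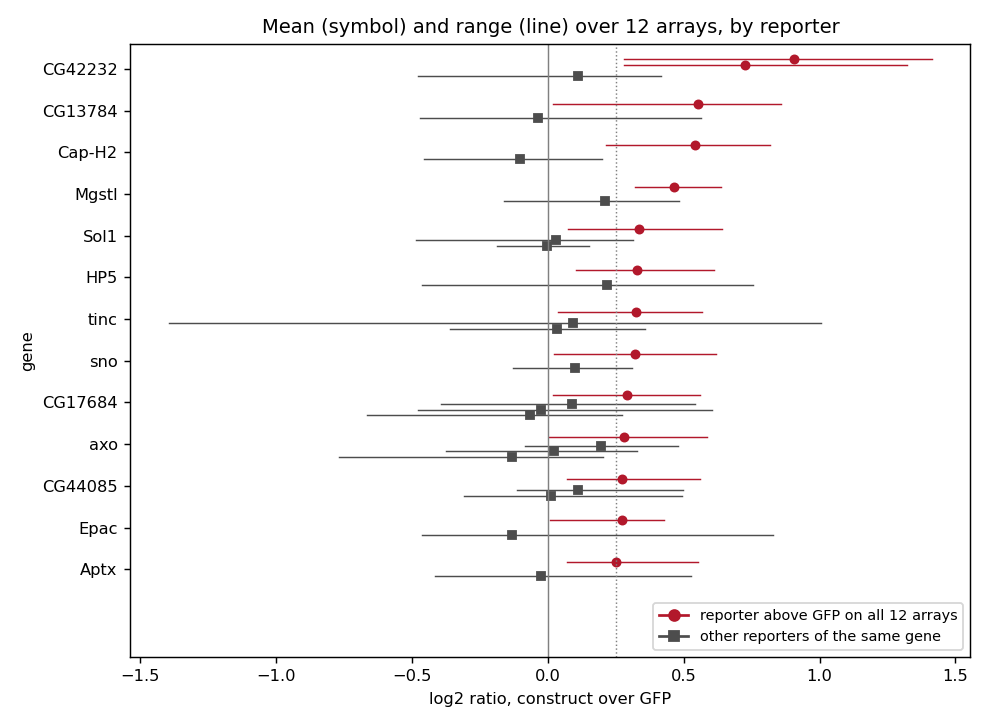
Mean (symbol) and lowest to highest value (line) of the log2 ratio of construct over GFP on 12 arrays, for the 13 genes with more than 1 reporter, by current RefSeq gene name. Circles are reporters above GFP on all 12 arrays and squares the 20 other reporters of the same genes. The squares are reporters that did not pass the rule, and their means run from -0.13 to 0.22, left of the dotted line at 0.25.

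Differences between the 3 constructs were not used to choose the reporters and were tested with limma on ratios made from the scanner intensities, over all 14485 reporters. No difference passed for any of the 39. For EnRep minus DichaeteWT, 0 of 39 were called at an adjusted p below 0.05 (0.0207% of all reporters were, 0.0138% higher and 0.0069% lower) and 2 had an unadjusted p below 0.05 (4.47% of all). For HMG-minus minus DichaeteWT the counts were 0 of 39 (0.0% of all) and 2 (5.27% of all). For EnRep minus HMG-minus they were 0 of 39 (0.0276% of all, 0.0207% higher and 0.0069% lower) and 4 (6.85% of all). The median width of the 95% intervals of the 39 reporters was 0.59 in each pair.

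Reporter 1000037757 differed most. EnRep minus HMG-minus was -0.87 (SE 0.16, 95% interval -1.22 to -0.52, limma adjusted p = 0.196) and EnRep minus DichaeteWT was -0.73 (SE 0.16, -1.07 to -0.38, limma adjusted p = 0.478). EnRep minus HMG-minus was -0.48 for ND-PDSW (SE 0.15, -0.80 to -0.15, limma adjusted p = 0.646). For CG40260 the same difference was 0.45 (SE 0.13, 0.18 to 0.72, limma adjusted p = 0.532). Its EnRep minus DichaeteWT difference was 0.31 (SE 0.13, 0.04 to 0.58, limma adjusted p = 0.997). HMG-minus minus DichaeteWT was 0.39 for CG30054 (SE 0.15, 0.07 to 0.71, limma adjusted p = 0.903). The sign of a difference was opposite in the deposited means for 6 of 39 reporters in EnRep minus DichaeteWT, 6 in HMG-minus minus DichaeteWT and 7 in EnRep minus HMG-minus, all of them differences whose interval spans 0. For Cap-H2 and Mgstl the differences were close to 0, at -0.04 (95% interval -0.31 to 0.23) and -0.06 (-0.31 to 0.19) for EnRep minus HMG-minus. The unnamed 1000044649, singled out after its values were seen, was the other reporter with an unadjusted p below 0.05, in HMG-minus minus DichaeteWT and in EnRep minus HMG-minus.

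By deposited values the 4 arrays of a construct rarely stood clear of another's. EnRep lay wholly above DichaeteWT for 1 of 39 reporters (1.13% of all reporters did), the unnamed 1000040570, and wholly below for 0 (0.904%). HMG-minus lay wholly above DichaeteWT for 3 (0.967%), namely CG14897 (a), CG31220 and the unnamed 1000044649, and wholly below for 0 (0.911%). EnRep lay wholly above HMG-minus for 1 (1.73%), CG40260, and wholly below for 3 (1.29%), namely TotE, ND-PDSW and 1000044649. The mean was highest in HMG-minus for 26 of 39 reporters, against 36.0% of all reporters and 41.9% of the 360 with a mean of 0.25 or more. It was highest in DichaeteWT for 7 (32.5% of all and 36.1% of the 360) and in EnRep for 6 (31.5% and 21.9%). HMG-minus replicate 2 alone held the highest value of 13 reporters, and replicate 3 that of 9. The share of all reporters with their highest value on these arrays was not counted, so these counts are not read further.

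**Figure D4:**
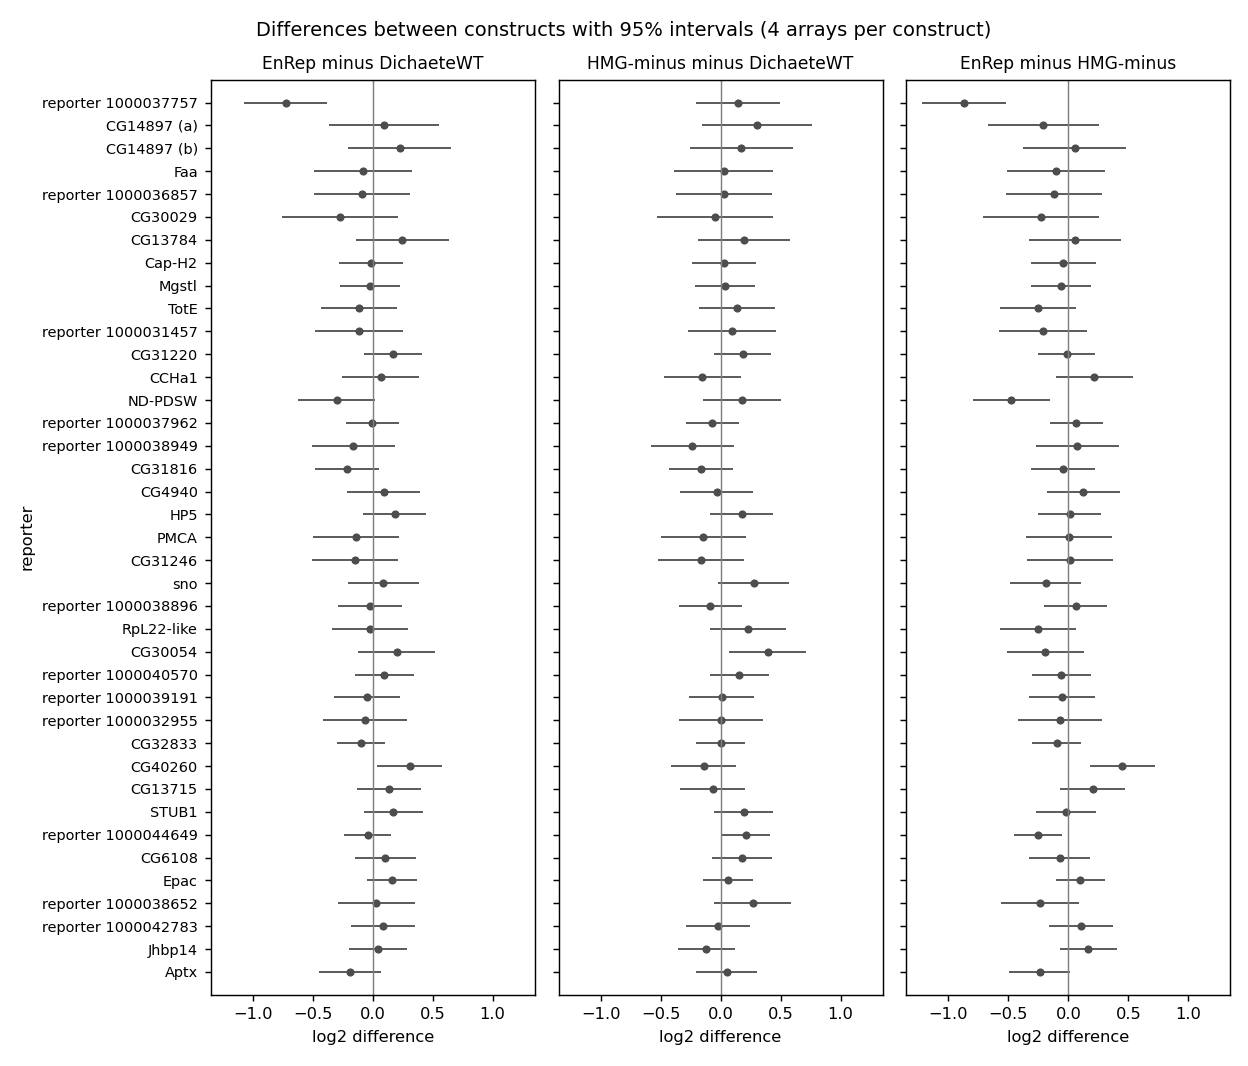
Difference in log2 ratio between constructs (points) with 95% intervals (lines) from limma, for the 39 reporters in the order of their mean over GFP, in 3 panels for the 3 pairs of constructs. Most intervals span 0. The exceptions are few, the farthest being reporter 1000037757 at -0.87 in EnRep minus HMG-minus.

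The dye of the construct RNA mattered for few of the 39, as the choice of reporters above 0 in both orientations favours. The dye term of the fit was called for 4 of 39, against 33.1% of all reporters, and had an unadjusted p below 0.05 for 6 of 39, against 43.7%. Its median size was 0.05, against 0.11. Reporter 1000037962 averaged 0.64 ± 0.08 with the construct in Cy5 and 0.10 ± 0.08 with it in Cy3 (SD, n = 6 each), and the 2 sets of arrays did not overlap (dye term 0.24, SE 0.04, limma adjusted p = 0.00113). Reporter 1000037757 averaged 1.31 with the construct in Cy5 and 0.80 in Cy3 (dye term 0.35, SE 0.07, limma adjusted p = 0.00184). CG30029 averaged 0.75 in Cy5 and 0.40 in Cy3 (0.27, SE 0.09, limma adjusted p = 0.0381). Faa ran the other way, with 0.46 in Cy5 and 0.85 in Cy3 (-0.23, SE 0.08, limma adjusted p = 0.0368). The calls for CG30029 and Faa ended in 13 and 12 of 19 other settings, most of them with 1 array left out. Of the 20 other reporters of the same genes, 8 had a called dye term.

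**Figure D5:**
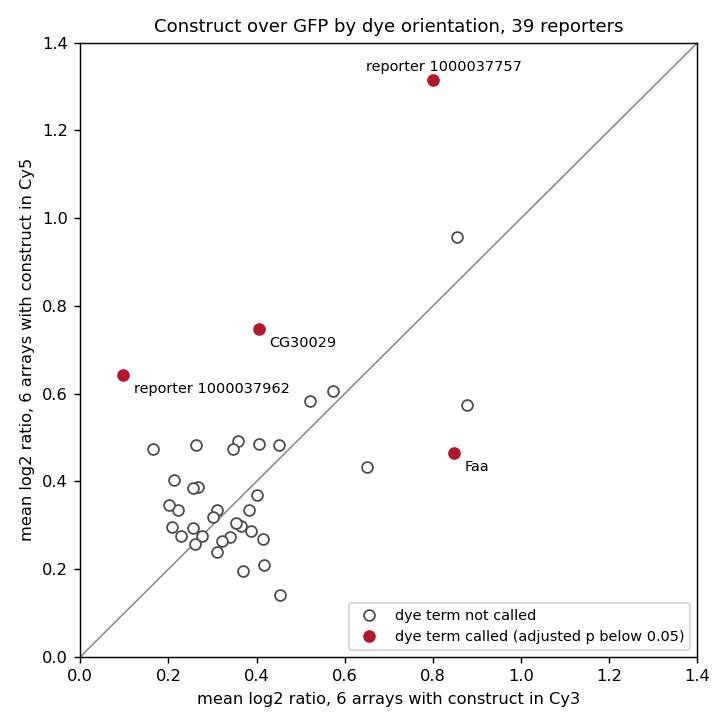
Mean log2 ratio of construct over GFP on the 6 arrays with the construct in Cy5 (vertical) against the 6 with it in Cy3 (horizontal), 1 point per reporter, with the line of equal values. The 4 filled points are reporters with a called dye term. Reporter 1000037962 lies far from the line, at 0.64 in Cy5 and 0.10 in Cy3.

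Ratios made anew from the scanner intensities kept all 39 means above 0, between 0.22 and 1.09, and 36 of them at 0.25 or more. On these ratios 28 of 39 reporters lay above 0 on all 12 arrays, 9 on 11, and 2, CG31246 and CG30054, on 9. Of the 39, 15 were accepted in both channels on all 12 arrays and 6 on fewer than 9. For Cap-H2 the median foreground was 616.5 in the construct channel and 407 in the GFP channel, over local backgrounds of 111.5 and 111. For TotE the foregrounds were 242.5 and 165.5 over backgrounds of 125 and 117. Each of the 39 was printed once per array, so no spot was repeated within an array.

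No gene of the 26 had another of them as its nearest measured neighbour. By the RefSeq gene table of the assembly Release 6 plus ISO1 MT, used for names, chromosome arms and gene order only, 3 of the 26 lie on X, 7 on 2L, 6 on 2R, 2 on 3L, 7 on 3R and 1, PMCA, on chromosome 4. The shares were 11.5% on X, against 15.6% of all genes measured, 26.9% on 2L, against 18.7%, and 23.1% on 2R, against 20.5%. They were 7.69% on 3L, against 19.5%, 26.9% on 3R, against 25.1%, and 3.85% on chromosome 4, from a single gene, against 0.536%. The nearest measured genes on either side, 52 in all, included 0 that lay above GFP on all 12 arrays (0.49% of all reporters did), and their means ran from -0.36 to 0.21 with a median of 0.01. The gene pair next to CG31220, CG6195 and CG31219, averaged -0.26 and -0.36. TotF, next to TotE, averaged 0.14. The genes flanking Cap-H2, MED7 and TfIIFbeta, averaged -0.17 and -0.08, and those flanking Faa, CG32259 and Gad1, -0.14 and -0.04.

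Midline genes were close to GFP in their median. Of 14 listed, 11 were measured on 12 reporters, with a median of 0.01 over a range of -0.34 for comm to 0.26 for Tl, and 0 lay above GFP on all 12 arrays, a count at the share of all reporters (0.49%). All 12 had spots accepted on at least 9 arrays. By array their median ran from -0.19 to 0.13 in EnRep, -0.06 to 0.12 in DichaeteWT and -0.06 to 0.06 in HMG-minus embryos. Mesoderm genes, 5 of 7 measured, had a median of -0.08, neuroectoderm genes, 10 of 11, a median of 0.00, and amnioserosa genes, 10 of 10, a median of -0.20. Haemocyte and gut genes had medians of -0.01 and -0.12. Of the 90 reporters whose symbols start with Cyp and a digit, nearly all cytochromes P450, 1, Cyp12c1, lay above 0 on all 12 arrays, at a mean of 0.22, under the threshold.

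RpL22-like, a paralogue of the ribosomal protein RpL22 best known from the germ line, was highest on the arrays where germ cell genes were highest. It had 0.05, 0.00, 0.35 and 0.38 in EnRep, 0.29, 0.15, 0.05 and 0.30 in DichaeteWT, and 0.18, 0.31, 0.86 and 0.90 in HMG-minus embryos, so that HMG-minus replicates 3 and 4 were highest. The RpL22-like spot was accepted in both channels on 8 of 12 arrays, and its lowest ratio made from the scanner intensities was -0.03. Of 7 germ cell genes listed, 5 were measured on 6 reporters, with array medians of -0.10 to 0.14 in EnRep, 0.01 to 0.30 in DichaeteWT and 0.14 to 0.85 in HMG-minus embryos, also highest on replicates 3 and 4. All 6 averaged above 0, between 0.06 for vas and 0.35 for osk. Maternal RNAs, 7 of 11 genes measured, had array medians of -0.30 to 0.56, -0.29 to 0.38 and 0.42 to 0.94 in the same order of constructs. The germ cell and maternal lists both name osk and nos, so they are not separate observations. ND-PDSW (0.84 and 0.78) and reporter 1000037757 (1.84 and 1.76) were highest on the same HMG-minus arrays. Both of these arrays had the construct in Cy5. RpL22-like averaged 0.47 on the arrays with the construct in Cy5 and 0.16 on those in Cy3, and ND-PDSW 0.48 and 0.26. The dye term was called for reporter 1000037757 and not for RpL22-like or ND-PDSW. HMG-minus replicates 3 and 4 lay above the 10 other arrays for 7 of 39 reporters, against 6.21% of all reporters. The 39 were chosen for a high mean. The share among the 360 reporters with a mean of 0.25 or more was not counted, so this count is not read further. The part of germ cell or maternal RNA in these values was not tested.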

How the data were processed

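Total RNA of 12 embryo samples was compared with RNA of GFP embryos on two-colour arrays, 4 for each of 3 constructs. The authors deposited log2 ratios per spot, construct over GFP, in the series value table. The submitters' processing notes name limma, without a version, and the background correction and normalization behind these log2 ratios are not given in the sources used here. The column medians of the deposited log2 ratios lay between -0.034 and 0.019, and each column correlated with the raw ratio of bright spots, turned to construct over GFP by the labelled dyes, at 0.98 to 1.00. Over all spots, dim ones included, the correlation ran from 0.73 on HMG-minus replicate 2 to 1.00 on EnRep replicate 2. The scanner files, per the file headers, hold each spot's median pixel intensity and that of the area around it, for both dyes. Of 18240 spots per array, 14569 are in the value table, and the other 3671 were not used.

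Deposited log2 ratios of spots sharing the first 10 characters of the spot identifier were averaged to 14485 reporters, of which 12574 carry 1 gene symbol, 96 several and 1815 none. RefSeq (Release 6 plus ISO1 MT) matched 12534 by gene identifier, accession or synonym. Intensities were processed with limma 3.58.1 in R 4.3.3 by normexp (offset 50), global loess (span 0.3) and averaging. One linear model gave each construct's mean and a dye term (+1 where the construct was in Cy5, -1 in Cy3), with empirical Bayes variances, 8 residual and 4.6 prior degrees of freedom, two-sided p-values adjusted by Benjamini and Hochberg over all reporters, and 0.05 as the threshold. The model was tested on simulated data. Replicate numbers were not taken to pair samples across constructs.

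The members, gene lists and tests were chosen with earlier results of these data known. Named with all values were the 10 highest reporters with a symbol, the 2 highest without, and members of textbook role. Alternatives changed the background correction, offset, normalization, source of ratios, filter, dye term, block, variance prior and threshold, and left out each array. P-values weigh a construct difference or dye term against the spread between these replicates, moderated by the spread over all reporters. The promoter search that was planned was not run, since no sequence was used.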

Additional observations from a re-analysis of the deposited data

Results flagged for a closer look

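In each group of 4 arrays, the highest or lowest value was compared with the group's range, for the 39 reporters in 3 constructs and for the median of the 39 on each array, 120 groups in all. A value far from the other 3 was found in 8 groups. Among values not chosen by their level, chance gives such a value in about 1 group in 20. The 39 reporters were chosen to lie above 0 on every array, which limits low values, so that rate does not strictly apply here. The 8 are listed as a description only. CG30029 had 0.90 on EnRep replicate 4, against 0.14 to 0.23 on the other EnRep arrays. CG32833 had 1.13 on DichaeteWT replicate 1, where the other DichaeteWT arrays were at 0.24 or less. CG13715 stood at 0.59 on HMG-minus replicate 2, and the unnamed reporter 1000032955 at 0.80 on the same array. CG6108 was high on DichaeteWT replicate 2 (0.44). On EnRep replicate 2, Aptx was high (0.28), as was the unnamed reporter 1000038949 (0.60). The unnamed reporter 1000038896 was low on HMG-minus replicate 1 (0.053). The unnamed reporters were picked by this comparison, after their values were seen. These are values of single arrays, and their cause was not tested.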

How the results depend on the processing

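In all 3 differences between constructs, no reporter of the 39 was called in any setting tried (31 of them were tested without the dimmest 25%), including replicate number as a block (0 in each difference) and each array left out in turn (0 in each). The single reporters followed through the settings kept their direction, but small differences of other reporters changed sign on the deposited ratios. The replicate numbers were not taken as pairs. With construct means removed, residuals of same-numbered arrays correlated at between -0.27 and 0.52. Arrays of other numbers with the same dye correlated at between -0.26 and 0.74. With the dye term also removed, same-numbered arrays correlated at between -0.64 and 0.24. Same-numbered arrays always share the dye, so these values do not settle whether the numbers are pairs. With ratios made from scanner intensities, 26 of 39 reporters met the rule with global loess, 24 without background subtraction, 22 with median centring and 24 with print-tip loess. Over all reporters the rule was met by 72 with print-tip loess, and by 31 of the reporters left without the dimmest 25% on the deposited ratios. Leaving out 1 array, 35 to 39 members met it on the deposited ratios. These ratios chose the members, which therefore stay above 0, so only their mean could fall short. Over all reporters 38 to 73 met it, with 73 reached without HMG-minus replicate 1. A dye term was called for 4 of the 39, for 2 without background subtraction, for 1 with a trended and robust variance, and for 2 to 6 with 1 array left out, the lowest without EnRep replicate 2 or 3, DichaeteWT replicate 4, or HMG-minus replicate 2, 3 or 4. The calls for CG30029 and Faa ended in 13 and 12 of 19 settings, and those for reporters 1000037757 and 1000037962 in 1 each, the trended and robust variance and print-tip loess. With an offset of 10 the means of TotE and CCHa1 were 0.63 and 0.58. The causes were not tested. Counting only arrays with the spot accepted in both channels, 35 of 38 members met the rule, where again only the mean could fall short. Alternatives added after seeing the data were that count, the number of all reporters meeting the rule, and means without EnRep replicate 4. The planned window of a promoter search was not run.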
